A study of Rattus norvegicus and Mus musculus with 22 samples.

Results

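The liver makes most proteins of blood plasma, and the 40 genes described here encode a fixed set of them: 8 carriers and transport proteins, 8 apolipoproteins, 10 proteins of coagulation and fibrinolysis, 4 complement proteins, 5 genes of the inter-alpha-trypsin inhibitor family, 2 adhesive or lipid-binding glycoproteins and 3 acute-phase proteins that other tissues make as well. They were chosen by name, matched to the gene symbols of each table without regard to case. All 40 were found among the 24537 genes of the mouse hepatocyte table and of the mouse islet table, 40 in the CRTC2 knockout table, 37 in the replicated table of rat INS-1 cells, and 36 each in the AR42J table and the INS-1 inhibitor table. Total RNA-seq libraries with strand-preserving chemistry had been made from 22 samples to follow the response to forskolin, which activates adenylyl cyclase and so raises cAMP. Cultured primary hepatocytes and cultured primary islets of wild-type black6 mice each had 2 control and 2 forskolin libraries. Islets of CRTC2KO mice, which the labels describe as whole body, had 1 control and 1 forskolin library. CRTC2 is a coactivator of the cAMP-responsive transcription factor CREB. Rat INS-1 insulinoma cells had 2 control and 2 forskolin libraries and a separate set of 4 single libraries: control, forskolin, JQ1 with forskolin, and A485 with forskolin. Rat AR42J cells, a pancreatic line carrying GFP or NeuroD1, had 1 control and 1 forskolin library of each kind. Cells received 10 µM forskolin for 2 h, and JQ1 (1 µM) or A485 (10 µM) was present for 4 h. The labels do not name the vehicle, say how GFP or NeuroD1 was introduced, or say whether animals were pooled or replicates came from separate animals.

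Plasma protein genes are transcribed in hepatocytes under a small circle of liver-enriched factors, among them HNF1, HNF4 and C/EBP proteins, and several of their promoters were among the first used to study tissue-specific transcription. The proteins leave the cell through the secretory pathway: albumin keeps the osmotic pressure of plasma and carries fatty acids, apolipoproteins build lipoprotein particles, and clotting factors and their inhibitors circulate until they are activated. In infection or after tissue injury interleukin-6 and related cytokines raise positive acute-phase proteins such as haptoglobin, haemopexin, ceruloplasmin, fibrinogen, C3 and serum amyloid A. Cyclic AMP is best known in liver for the fasting programme, in which CREB induces the gluconeogenic enzymes Pck1 and G6pc and the amino acid enzyme Tat.

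Promoter sequences of 32 of the 40 genes were held by the RefSeq table for the rat genome assembly GRCr8, which is not the build of the deposited tables; mouse promoters were not analysed here. Within 250 bases before the gene start, on either strand, none of the 32 held the full cAMP response element TGACGTCA, which 1.59% of 33469 rat promoters held. Its core TGACG was present in 2 of 32, Apoa5 and Rbp4 (6.25%, against 18.2% of all promoters). The HNF1 core GTTAAT was present in 10 of 32 (31.2%, against 6.45%), and the HNF4 core CAAAGT in 6 of 32 (18.8%, against 12.9%). A TATAAA box stood in 7 of 32 (21.9%, against 12.9%). These are letter matches only; every TGACGTCA also holds TGACG. The 200 bases before the gene start are printed for 6 genes, picked after their values were seen, as examples of levels that differ between the cell types below: Alb, the carrier that rat pancreatic cell lines barely express, Gc, Ambp and Fgb, which INS-1 cells express, and Apoa5 and Apoc4, which AR42J cells express. All read 5′ to 3′ on the strand of the gene, with matches to the 5 motifs in capitals. In Gc the HNF4 and HNF1 cores overlap. The regions are chr14:17906980-17907179 (minus strand), chr14:18916055-18916254 (plus), chr5:81593858-81594057 (minus), chr2:170700876-170701075 (minus), chr8:55457671-55457870 (plus) and chr1:88467910-88468109 (minus).
Alb: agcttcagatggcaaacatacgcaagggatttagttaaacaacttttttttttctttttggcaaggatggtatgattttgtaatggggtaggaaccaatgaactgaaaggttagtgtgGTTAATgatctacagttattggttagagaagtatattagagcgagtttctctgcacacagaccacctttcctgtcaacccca
Gc: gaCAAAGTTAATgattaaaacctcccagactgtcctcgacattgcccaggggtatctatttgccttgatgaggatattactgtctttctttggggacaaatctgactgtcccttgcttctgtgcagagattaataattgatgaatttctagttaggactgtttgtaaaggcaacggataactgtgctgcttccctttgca
Ambp: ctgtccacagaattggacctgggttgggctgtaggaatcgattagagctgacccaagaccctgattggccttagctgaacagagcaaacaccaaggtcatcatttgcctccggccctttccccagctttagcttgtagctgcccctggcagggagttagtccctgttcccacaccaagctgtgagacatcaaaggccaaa
Fgb: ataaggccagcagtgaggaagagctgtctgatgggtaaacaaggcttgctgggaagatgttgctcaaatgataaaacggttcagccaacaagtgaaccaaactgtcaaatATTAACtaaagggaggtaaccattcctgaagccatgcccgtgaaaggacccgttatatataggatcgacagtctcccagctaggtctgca
Apoa5: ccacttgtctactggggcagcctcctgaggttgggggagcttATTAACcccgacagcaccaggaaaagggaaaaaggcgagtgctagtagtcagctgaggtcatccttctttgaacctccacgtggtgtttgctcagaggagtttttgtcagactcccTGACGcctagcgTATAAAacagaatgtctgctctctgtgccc
Apoc4: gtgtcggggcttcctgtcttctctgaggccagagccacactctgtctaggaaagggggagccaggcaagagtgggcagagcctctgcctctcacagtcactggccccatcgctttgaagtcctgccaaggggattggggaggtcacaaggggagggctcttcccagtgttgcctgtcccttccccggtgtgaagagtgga
Alb carries GTTAAT 82 bases before its start, Fgb the same letters on the other strand at 90 bases and Apoa5 at 158 bases. Apoa5 also holds TGACG 42 bases and TATAAA 30 bases before its start. Apoc4 and Ambp match none of the 5 motifs in these windows.

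All values of the hepatocyte and islet tables are the authors' log2 expression after regularisation, which pulls the differences of weakly expressed genes towards 0. Read totals in the file headers were 2.32 M and 1.95 M for hepatocyte control 1 and forskolin 1, 6.13 M and 6.2 M for control 2 and forskolin 2, and 3.07 M to 3.88 M for the 4 islet libraries. In hepatocytes 13 cAMP and CREB target genes, checked to see that the treatment labels hold, were all higher in forskolin 1 than in control 1 (median difference 0.92) and all lower in the library labelled forskolin 2 than in the library labelled control 2 (median −1.24). Pck1 stood at 7.71, 10.08, 10.17 and 7.62 in the libraries labelled control 1, forskolin 1, control 2 and forskolin 2. The header of the deposited table lists the column groups as control, forskolin, forskolin, control, and its tag directory for the column named control 2 carries the words for 1 h of forskolin, where the labels say 2 h. The authors' log2 fold changes correlated with the column differences at r = 0.198 as the columns are named and at r = 0.975 with the replicate 2 columns exchanged (12590 genes, no test). Hepatocyte libraries are therefore called by their labels throughout, and the counts, role medians and intervals of the forskolin comparison are also given with the replicate 2 columns exchanged. In islets all 13 target genes were higher with forskolin in both pairs (medians 2.56 and 3.45).

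Plasma protein genes were among the most abundant transcripts of the cultured hepatocytes. Per kb of transcript, 10 of the 40 ranked within the 20 highest genes of the table and 16 within the 100 highest. Summed over the 40 genes, they took about 9.62%, 9.59%, 10.3% and 10.5% of the approximate reads of control 1, forskolin 1, control 2 and forskolin 2, shares obtained by undoing the log2 scale. The 8 carriers alone accounted for 6.24% to 6.70%. The lowest per kb were Apoa5 (rank 9289), the regulator of plasma triglyceride clearance, and C8a (rank 6163), a subunit of the membrane attack complex.

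Carriers led the list. Hpx, which binds free haem, stood at 15.36, 15.42, 15.34 and 15.38 on the log2 scale, in the order control 1, forskolin 1, control 2, forskolin 2 that is kept for all hepatocyte values. Gc, the vitamin D binding protein, stood at 15.00, 15.02, 15.30 and 15.30. Hp, which captures free haemoglobin, stood at 14.38, 14.38, 14.49 and 14.55. Gc and Hp were higher in both replicate 2 libraries, and for Hpx both libraries labelled forskolin lay slightly above both labelled control. With the replicate 2 columns exchanged the Hpx groups overlapped. Trf, the iron carrier transferrin, stood at 14.91, 14.93, 15.19 and 15.25. Alb, albumin, stood at 14.55, 14.56, 14.47 and 14.43. Cp, the copper-carrying ferroxidase, stood at 14.29, 14.21, 14.82 and 14.79. Trf and Cp were higher in both replicate 2 libraries and Alb was lower in them, again without a gap between control and forskolin. Rbp4, the plasma carrier of retinol, stood at 11.20, 11.35, 11.02 and 11.02, with forskolin 1 the highest.

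Outside the carriers, the highest levels per kb belonged to 4 genes of other roles. Lcn2, lipocalin 2, an acute-phase protein that binds bacterial siderophores, stood at 12.94, 12.97, 13.28 and 13.32. Ambp, the precursor of alpha-1-microglobulin and bikunin, stood at 13.39, 13.44, 13.40 and 13.42. C3, the central complement component, stood at 14.96, 14.91, 15.49 and 15.47. Lcn2 and C3 were higher in both replicate 2 libraries, and Ambp was nearly level across all 4. Fgb, the fibrinogen beta chain, stood at 13.19, 13.18, 13.49 and 13.50, and Fga, the alpha chain, at 11.45, 11.41, 11.99 and 12.02. Both fibrinogen chains were higher in replicate 2 libraries. Lcn2, Orm1 and Saa3 are the 3 members grouped here as acute-phase proteins also made outside the liver. The grouping does not mean that the other members are made in liver alone. Orm1 (alpha-1-acid glycoprotein) lay between 10.99 and 11.22 and Saa3 between 10.37 and 10.70. Orm1 has near-identical gene copies between which the authors' counting may have divided reads.

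**Figure D1:**
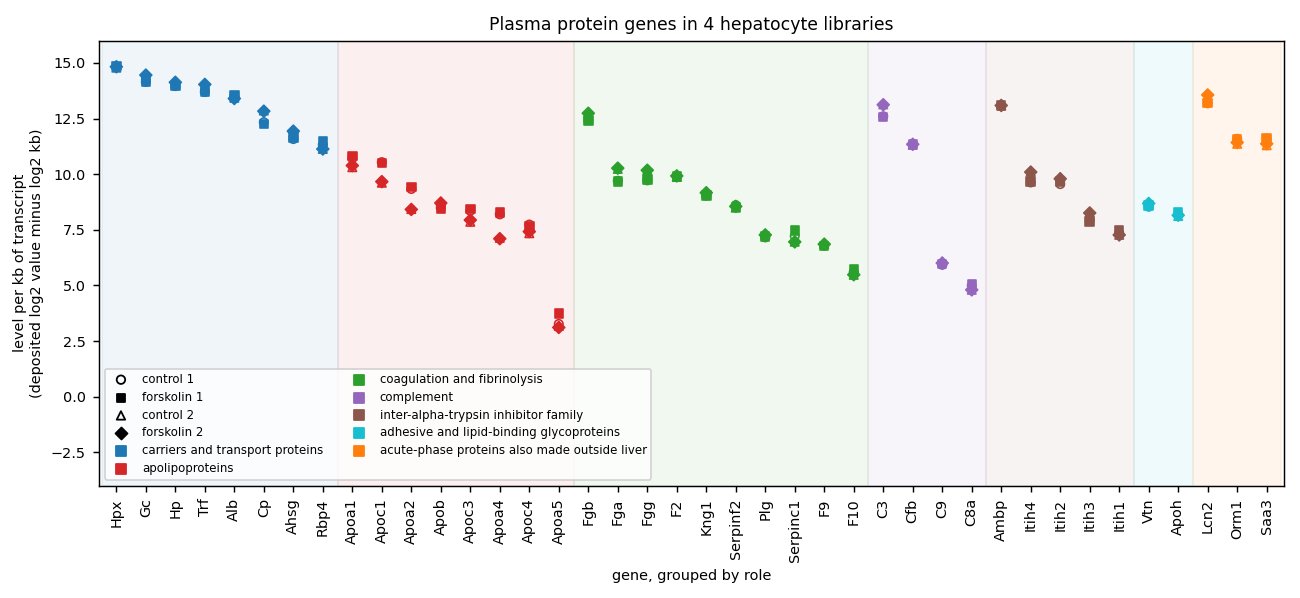
Level per kb of transcript (deposited log2 value minus log2 of the length in kb) of each of the 40 genes in the 4 hepatocyte libraries; open symbols are controls, filled symbols forskolin, colours are roles. Hpx is the highest and Apoa5 the lowest, and for most genes the replicate 1 and replicate 2 libraries separate more than control and forskolin do.

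In hepatocytes no plasma protein gene passed the forskolin test in any fit without a replicate block. The fit as labelled cannot decide whether forskolin changed a gene, because the cAMP and CREB target genes went opposite ways in its pairs. Pck1 differed by 2.36 in pair 1 and −2.55 in pair 2, and such differences cancel in the mean. The authors' log2 fold changes followed the exchanged columns (r = 0.975, against 0.198 as named), so the exchanged fit below is the more informative. With limma on the libraries as labelled, 0 of 40 had an adjusted p under 0.05, as had 0 of the 12593 genes tested (0% higher and 0% lower; 32 genes, none of the 40, had an unadjusted p under 0.05). The median difference of the 40 was 0.02, with the lowest −0.06 and the highest 0.20. The 95% intervals lay within 1 on the log2 scale for 38 of 40, and their median distance from estimate to bound was 0.369. Apoa4 had the widest, −1.10 to 1.14. With the replicate 2 columns exchanged, 0 of 40 were again called, beside 3 of 12597 genes higher (0.0238%) and 0 lower (0%). The median difference of the 40 was then 0.01, with the lowest −0.07 and the highest 0.26, and 38 of 40 intervals lay within 1. In the authors' deposited table, 50 of 15492 genes were higher (0.323%) and 7 lower (0.0452%) at adjusted p under 0.05, with 0 of the 40 among them; the log2 fold changes of the 40 ran from −0.09 to 0.37 with a median of 0.01, and 23 were above 0.

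Within pairs, 28 of the 40 were higher in forskolin 1 than in control 1 (median difference 0.03), beside 6276 of all 12590 genes. As labelled, 20 were higher in forskolin 2 than in control 2 (median 0.00), beside 6289 of all genes. Only 13 were higher in both pairs as labelled and 5 lower in both, while 15 were higher in pair 1 and lower in pair 2. With the replicate 2 columns exchanged, 15 were higher in both pairs and 7 lower in both. Signs over both pairs were not counted for all genes. Apoa5 stood apart: 4.48 in control 1, 4.94 in forskolin 1, 4.39 in control 2 and 4.32 in forskolin 2. Forskolin 1 was thus its highest library, and the other 3 lay close together. Its difference was 0.20 (SE 0.19, 95% interval −0.26 to 0.66, limma adjusted p = 1) as labelled and 0.26 (SE 0.17, 95% interval −0.16 to 0.69, limma adjusted p = 1) with the replicate 2 columns exchanged, and the authors' deposited table gives 0.37 with an adjusted p of 1. With the exchange and a replicate block Apoa5 was called (0.26, limma adjusted p = 0.000318), beside 3.14% of genes higher and 1.8% lower. The labels do not say that replicate numbers mark pairs. Among the other 39 members, pair 1 differences ran from −0.08 to 0.24.

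The next largest increases in the authors' deposited table were Serpinc1 (0.18), Itih2 (0.11), Rbp4 (0.11) and Itih1 (0.11), all with an adjusted p of 1. Serpinc1, antithrombin, stood at 8.33, 8.57, 8.07 and 8.06. Itih2, a heavy chain of the inter-alpha-trypsin inhibitor that stabilises hyaluronan, stood at 11.19, 11.30, 11.50 and 11.43, and Itih1, another heavy chain, at 8.97, 9.11, 8.89 and 8.88. In each the library labelled forskolin 1 exceeded control 1. The replicate 2 libraries differed little for Serpinc1 and Itih1, whereas Itih2 was lower in the library labelled forskolin 2 (pair 2 difference −0.07). With the replicate 2 columns exchanged each was higher with forskolin in both pairs, Serpinc1 and Itih1 only slightly so in pair 2. The largest decreases were no deeper than −0.09: Serpinf2, the plasmin inhibitor alpha-2-antiplasmin, stood at 9.73, 9.66, 9.62 and 9.68, and Apoc4, an apolipoprotein of very low density lipoprotein, at 6.77, 6.71, 6.38 and 6.46. Hp (−0.05), Orm1 (−0.04) and Fga (−0.04) completed the 5 decreases in the authors' deposited table. Serpinf2 overlapped between all labels, and Apoc4 was lower in both replicate 2 libraries. With the replicate 2 columns exchanged, both Serpinf2 controls (9.73 and 9.68) lay slightly above both forskolin libraries (9.66 and 9.62). Apoc4 was then lower with forskolin in both pairs (−0.06 and −0.07).

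By role, the median difference of hepatocyte forskolin libraries against controls (limma as labelled) was 0.03 for the 8 apolipoproteins, 0.03 for the 8 carriers, 0.00 for the 4 complement genes, 0.01 for the 10 coagulation genes and 0.02 for the 5 inter-alpha-trypsin genes. With the replicate 2 columns exchanged these medians were 0.01, 0.01, 0.01, 0.00 and 0.03 in the same order. Lists of related genes gave other counts in the authors' deposited table. Of 62 other plasma proteins tested, 0 passed in either direction. Of 33 hepatocyte genes that are not secreted, 5 were higher and 0 lower, among them Tat, tyrosine aminotransferase, at 8.57, 10.46, 10.19 and 8.58 (authors' log2 fold change 2.57). Of 9 genes of acute-phase signalling, 1 was higher, and of 18 hepatocyte transcription factors 0 passed, with Hnf4a at a log2 fold change of 0.38. Of the 13 cAMP and CREB targets, 10 were higher and 0 lower.

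Differences between replicate 1 and replicate 2 hepatocyte libraries were larger than those between treatments. Both replicate 2 libraries lay above both replicate 1 libraries for 19 of the 40 and below them for 17, beside 29.9% and 28.2% of all 12590 genes, and 4 overlapped. The 5 genes with the lowest values in replicate 2 relative to replicate 1 were apolipoproteins. Apoa4, an intestinal and hepatic apolipoprotein, stood at 8.93, 9.01, 7.87 and 7.83, a mean difference of −1.11. Apoa2 of high density lipoprotein, at 8.38, 8.48, 7.48 and 7.46, was lower by a mean of −0.96, and Apoc1, an inhibitor of lipoprotein uptake, by −0.88. Apoc3, which slows triglyceride clearance, differed by −0.50 and Apoa1, the main protein of high density lipoprotein, by −0.41. The genes higher in replicate 2 were led by Fga (0.57), Cp (0.55), C3 (0.55), Itih4 (0.45) and Fgg (0.43).

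These differences moved with transcript length. Across the 40 genes the replicate difference correlated with log length at r = 0.557 (rho 0.526), and across the 2424 genes with a mean of at least 8 at r = 0.547 (rho 0.556). Genes share the 4 libraries, so no test was made. All 5 members under 700 bases were lower in replicate 2 (median −0.50, against −0.32 for all 57 such genes), and of the 8 members of 3000 bases or more 6 were higher (median 0.37, against 0.10 for 1264 genes). Apoa4, with 1661 bases, had the lowest difference of the 40. Read depth also differed between the replicate numbers, as given above, and the part of length or depth in the differences was not tested. In the mm10 annotation Apoa1, Apoc3, Apoa4 and Apoa5 lie side by side on chromosome 9; all 4 were lower in replicate 2, by −0.41, −0.50, −1.11 and −0.36, with Apoa4 apart from the other three in size.

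**Figure D2:**
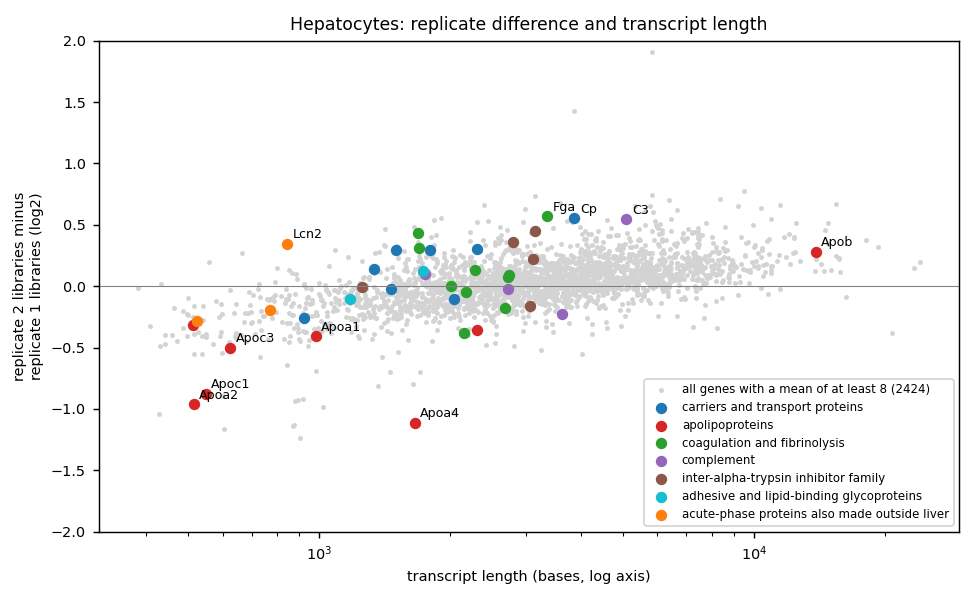
Mean of the replicate 2 minus the replicate 1 hepatocyte libraries (log2) against transcript length on a log axis; grey points are the 2424 genes with a mean of at least 8, coloured points the 40 plasma protein genes by role. The short apolipoproteins Apoa2 and Apoc1 and the longer Apoa4 lie lowest, and Fga, Cp and C3 highest among the 40.

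In wild-type islets the plasma protein genes were uneven between libraries: 1 of 4, the library labelled forskolin 1, held them at clearly higher levels. Of the 40, 38 reached a mean of 1 on the log2 scale; C9, a pore-forming complement protein, stayed below it and Saa3 was listed at 0 in all 4. Forskolin 1 exceeded control 1 for 37 of the 38, with a median difference of 2.06, whereas forskolin 2 exceeded control 2 for 18 of 38, with a median of 0.00. Forskolin 1 exceeded each of the other 3 libraries by at least 1 for 32 of 38, beside 1.26% of 13584 genes (171). In bulk samples more cells of a type and more RNA per cell cannot be told apart. Summed over the 40, approximate shares of reads were 0.0715% in control 1, 0.376% in forskolin 1, 0.054% in control 2 and 0.0525% in forskolin 2.

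The 8 largest differences in pair 1 were found among carriers, apolipoproteins, fibrinogen and Apoh. Ahsg, fetuin-A, an inhibitor of mineral deposition, stood at 5.75, 8.97, 4.99 and 4.89 (control 1, forskolin 1, control 2, forskolin 2, the order kept for islets). Alb stood at 8.77, 11.97, 7.86 and 7.999. Apoa1 stood at 5.64, 8.78, 4.45 and 4.74. In all 3 forskolin 1 was higher than the next library by over 3, control 1 came second, and the replicate 2 libraries lay close together. Apoa2 stood at 5.33, 8.22, 4.38 and 4.40, Apob, the structural protein of low density lipoprotein, at 4.63, 7.48, 4.27 and 4.34, and Apoa4 at 4.80, 7.56, 3.61 and 3.74. Fga stood at 4.68, 7.43, 4.00 and 4.19. Apoh, beta-2-glycoprotein I, which binds phospholipids, stood at 4.59, 7.31, 3.94 and 3.98. A like order of libraries held for these 5: forskolin 1 far highest, control 1 next, and control 2 and forskolin 2 close together.

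By role the pair 1 median was 2.65 for the 8 apolipoproteins, 2.57 for the 8 carriers, 2.05 for the 10 coagulation genes, 1.64 for the 5 inter-alpha-trypsin genes and 1.51 for the 3 complement genes measured, while the pair 2 medians lay between −0.05 and 0.10. The smallest increases among genes above a level of 5 were those of Rbp4, at 7.75, 8.79, 7.23 and 7.84, Ambp, at 6.34, 7.30, 6.35 and 6.32, and Gc, at 7.80, 9.37, 8.13 and 8.05. Those 3 already had high levels in the other 3 libraries. Lcn2 alone was lower in forskolin 1, at 3.72, 3.53, 3.76 and 3.74. Control 1 exceeded control 2 for 32 of 38 (median 0.34), beside 51.6% of all genes.

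**Figure D3:**
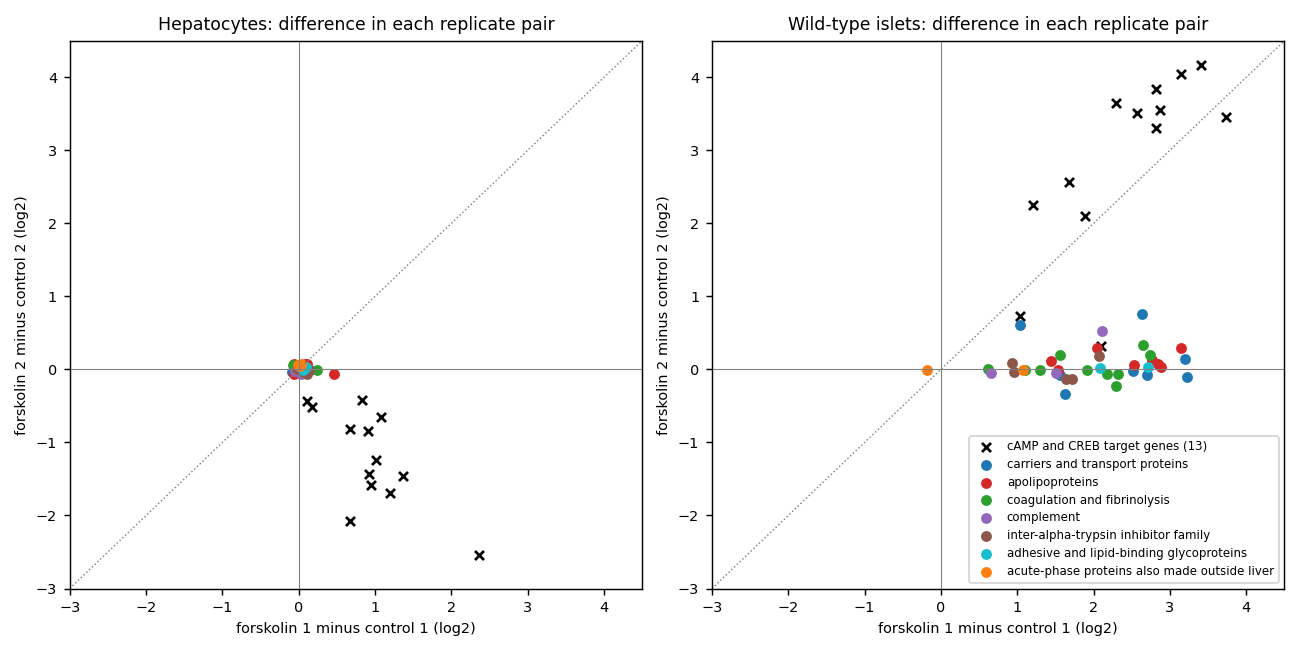
Difference between forskolin and control in replicate pair 2 against pair 1 (log2) for hepatocytes and wild-type islets; coloured points are the plasma protein genes by role, crosses the 13 cAMP and CREB target genes, and the dotted line marks equal differences. In hepatocytes the plasma protein genes lie at the origin apart from Apoa5, and the target genes point opposite ways in the pairs; in islets the plasma protein genes spread to the right at about 0 in pair 2, while most target genes are well above 0 in both pairs.

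No plasma protein gene passed the test in islets as designed. With limma, 235 of 13656 genes were higher (1.72%) and 33 lower (0.242%) at adjusted p under 0.05, and 0 of the 38 were called; Rbp4 was the only 1 with an unadjusted p under 0.05 (difference 0.83, SE 0.35, adjusted p = 0.337). The median difference was 1.04, and for Alb it was 1.67 with a 95% interval from −0.79 to 4.14 (limma adjusted p = 0.51). Leaving out forskolin 1 moved the median of the 38 to −0.11 with 0 called, beside 5.93% higher and 0.962% lower among all genes. Leaving out forskolin 2 moved it to 2.23 with 37 called higher and 0 lower, beside 13.8% and 7.04%, so the values rest on forskolin 1. The authors' deposited table had called more: 483 of 17053 genes were higher (2.83%) and 63 lower (0.369%), and of the 39 members with a fold change only Itih3 was called (log2 fold change 2.79, adjusted p 0.00287). Itih3, a heavy chain of the inter-alpha-trypsin inhibitor, stood at 3.04, 5.11, 2.96 and 3.14, and its difference was 1.13 (SE 0.51, limma adjusted p = 0.375). Alb had a fold change of 1.19 in that table (adjusted p 0.521).

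Hepatocyte genes that are not secreted moved with them. Of 34 such genes, 33 were higher in forskolin 1 than in control 1 (median 1.31) and 15 were higher in forskolin 2 than in control 2; forskolin 1 exceeded each other library by at least 1 for 23. Their summed approximate CPM was 910 in control 1, 2004 in forskolin 1, 953 in control 2 and 757 in forskolin 2. Slc2a2, a list gene at 9.88, 9.37, 10.15 and 9.12, weighs heavily in these sums and was not highest in forskolin 1. The list also holds Pck1 and Tat of the fasting programme. The drug-metabolising enzyme Cyp2e1 stood at 6.07, 9.40, 4.65 and 4.63. Forskolin 1 was the highest library for it, as for albumin. Of 55 other plasma proteins, 51 were higher in forskolin 1 than in control 1 (median 0.83), among them the protease inhibitor Serpina3k at 5.81, 8.86, 4.67 and 4.56. Acinar genes had sums of 1156, 1056, 2437 and 3388, lowest in forskolin 1, although 11 of 16 were higher in forskolin 1 than in control 1 (median 0.15) and 15 of 16 in forskolin 2 than in control 2 (median 0.40). The 17 endocrine genes summed to 31.6%, 23.3%, 29.1% and 28.8% of approximate reads. What part liver cells or their RNA have in the forskolin 1 values was not tested.

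The CRTC2 knockout table has 1 library per column, so its differences have no replicate check. Its values behave as FPKM. Its wild-type columns may be libraries of the islet table, which the labels do not say. They did not show the rise of islet forskolin 1 over control 1, which was 3.20 for Alb. Alb was at 41.2 FPKM in the wild-type control column and 45.2 in the wild-type forskolin column. Which islet libraries these columns might be was not tested. Depths estimated from the smallest steps of the values were 2.16 M reads for the wild-type control, 2.26 M for wild-type forskolin, 5.69 M for knockout control and 0.61 M for knockout forskolin. The targeted gene Crtc2 was at 18.7 FPKM in the wild-type control and 13.9 in wild-type forskolin, and at 7.77 and 9.58 in the knockout control and knockout forskolin libraries. It was lower in both knockout columns and not at 0. Which exons were deleted is not stated in the sources used here.

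Plasma protein genes were at their highest in the knockout columns. Members at 1 FPKM or more numbered 23 of 40 in the wild-type control, 24 in wild-type forskolin, 36 in the knockout control and 39 in knockout forskolin, beside 49.7%, 48.5%, 50.4% and 48.8% of all genes of the table. Their summed FPKM was 299, 379, 1296 and 4865 in the same order. Alb was at 41.2, 45.2, 298 and 1436 FPKM. Apoa2 was at 12.7, 10.8, 159 and 654 FPKM, and Apoa1 at 3.50, 6.88, 95.9 and 434 FPKM. Alb and Apoa2 differed little between the wild-type columns, and Apoa1 was higher with forskolin there. All 3 were far higher in the knockout control and highest in knockout forskolin. That library was the shallowest of the 4, and 1 read per kb is worth 1.64 FPKM there, so its low values are coarse.

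Other members followed the same order of columns to different degrees. Apoa4 was at 0.302, 0.838, 20.8 and 89.1 FPKM, Ahsg at 6.19, 4.998, 57.0 and 270.1, Apob at 0.281, 0.324, 1.48 and 8.69, and Apoh at 2.29, 2.51, 26.0 and 127. Fga was at 0.893, 1.67, 8.54 and 40.1 FPKM, and Itih3 at 0.166, 0.466, 2.42 and 3.56. Each was higher in both knockout columns than in both wild-type columns. Gc, Ambp and Rbp4 already had high levels in the wild-type control: Gc was at 74.1, 67.2, 81.9 and 149 FPKM, Ambp at 32.6, 31.1, 32.6 and 81.5, and Rbp4 at 78.3, 141, 163 and 313. Gc and Ambp thus differed little between the control columns of the genotypes. Lcn2 did not follow this order, at 8.54, 7.68, 10.1 and 2.40 FPKM. Its knockout forskolin value, the lowest, stands for about 1.24 estimated reads, so its direction there is uncertain. Saa3 was listed at 0 in all 4.

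On the log2(FPKM + 1) scale, 29 of the 39 members detected were higher by at least 1 in the knockout control than in the wild-type control and 0 lower (median difference 1.91), beside 3.99% of 13030 genes higher and 1.82% lower. Knockout forskolin exceeded wild-type forskolin by at least 1 for 38 of 39 (median 3.05, beside 9.65% higher and 9.21% lower). Knockout forskolin exceeded the knockout control by at least 1 for 31 of 39 (median 1.73, beside 12.1% higher and 11.5% lower). That rise was not particular to the members: acinar genes were higher by at least 1 for 15 of 17 (median 2.07). The endocrine genes were above 0 for 17 of 17 (median 0.94), and housekeeping genes had a median of 0.85. Wild-type forskolin exceeded the wild-type control by at least 1 for 3 of 39 members (median 0.05, beside 9.2% higher and 6.61% lower). By role the median of knockout forskolin minus wild-type forskolin was 4.88 for apolipoproteins, 4.12 for carriers, 3.37 for coagulation genes, 2.28 for complement and 1.79 for the inter-alpha-trypsin family. The comparisons share columns and are given side by side only.

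Hepatocyte genes that are not secreted were again highest in knockout forskolin, with summed FPKM of 389, 347, 568 and 1695. Of the 34 genes, 7, 6, 0 and 1 were at 0. Slc2a2, a list gene at 249, 93.2, 150 and 92.3 FPKM, made up much of the wild-type control sum and did not follow this order. Knockout forskolin exceeded wild-type forskolin by at least 1 for 26 of 33 genes and was lower for 1 (median 2.76, beside 9.65% higher and 9.21% lower). Cyp2e1 was at 2.59, 2.66, 55.1 and 281 FPKM, and Fabp1, the liver fatty acid binding protein, at 1.78, 10.5, 58.8 and 279. Both had the same order of columns as albumin. Acinar genes summed to 3889, 6918, 340 and 1881 FPKM and were lower by at least 1 in the knockout control for 15 of 17. Hepatocyte transcription factors were not higher as a list in the knockout control than in the wild-type control (median difference −0.15, 2 of 14 higher by at least 1). Knockout forskolin exceeded the knockout control by at least 1 for 6 of the 14 factors (median 0.81). Against wild-type forskolin the median of the factors was −0.04, with 4 higher and 1 lower by at least 1. The genotype, the library and the amount of liver RNA cannot be told apart with 1 library per column.

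**Figure D4:**
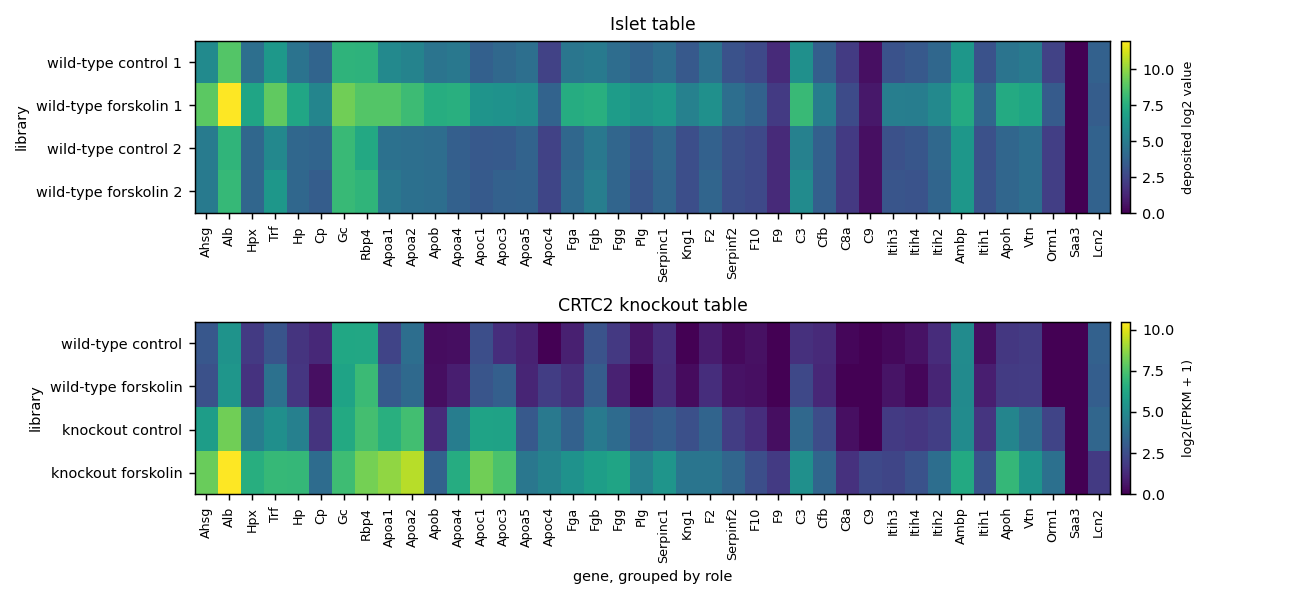
Levels of the 40 genes, grouped by role, in the 4 libraries of the islet table (deposited log2 value) and the 4 columns of the CRTC2 knockout table (log2 of FPKM + 1); each row is a library and the colour scales differ. Forskolin 1 is the bright row of the islet table and knockout forskolin that of the knockout table, while Gc, Rbp4 and Ambp are visible in every row.

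The relative levels of the members, given as log2 per kb relative to Alb, were alike in the islet libraries that held them most. Across 38 members, forskolin 1 correlated with knockout forskolin at r = 0.961 (rho 0.963) and with the knockout control at r = 0.968 (rho 0.965). Cultured hepatocytes correlated with forskolin 1 at r = 0.506 (rho 0.492) and with knockout forskolin at r = 0.421 (rho 0.427). Their correlations with the islet libraries control 1, control 2 and forskolin 2 were no lower, at r = 0.534, 0.572 and 0.569. Forskolin 1 was not correlated with those islet libraries, so whether the likeness is particular to the libraries that held the members most was not tested. The points are genes of tables that were normalised separately, so no test was made. Relative to Alb, 32 of the 37 members other than Alb lay within 1 of each other in forskolin 1 and knockout forskolin, whereas 7 of 37 lay within 1 in knockout forskolin and hepatocytes. Relative to Alb, 7 of the 8 apolipoproteins were higher in knockout forskolin than in hepatocytes (median 1.49), from Apoa5 by 3.73, Apoa2 by 3.43 and Apoc3 by 2.34 down to Apoc4 by 0.08; Apob was lower, at −2.49. All 3 complement genes compared were lower (median −4.63), as were all 5 of the inter-alpha-trypsin family (median −3.26) and both Lcn2 and Orm1. Of the 7 carriers other than Alb, 1 was higher (median −4.06), and of the 10 coagulation genes 2 were (median −1.90). The lowest values over all roles were those of Lcn2 (−9.12), Cp (−5.98), Hpx (−5.29), Cfb, the complement protease factor B (−5.08), Orm1 (−4.72) and C3 (−4.63). The difference between cultured hepatocytes and the islet libraries included Hpx, Gc, Hp and Trf, which lay above Alb per kb in hepatocytes and well below it in forskolin 1 and knockout forskolin.

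**Figure D5:**
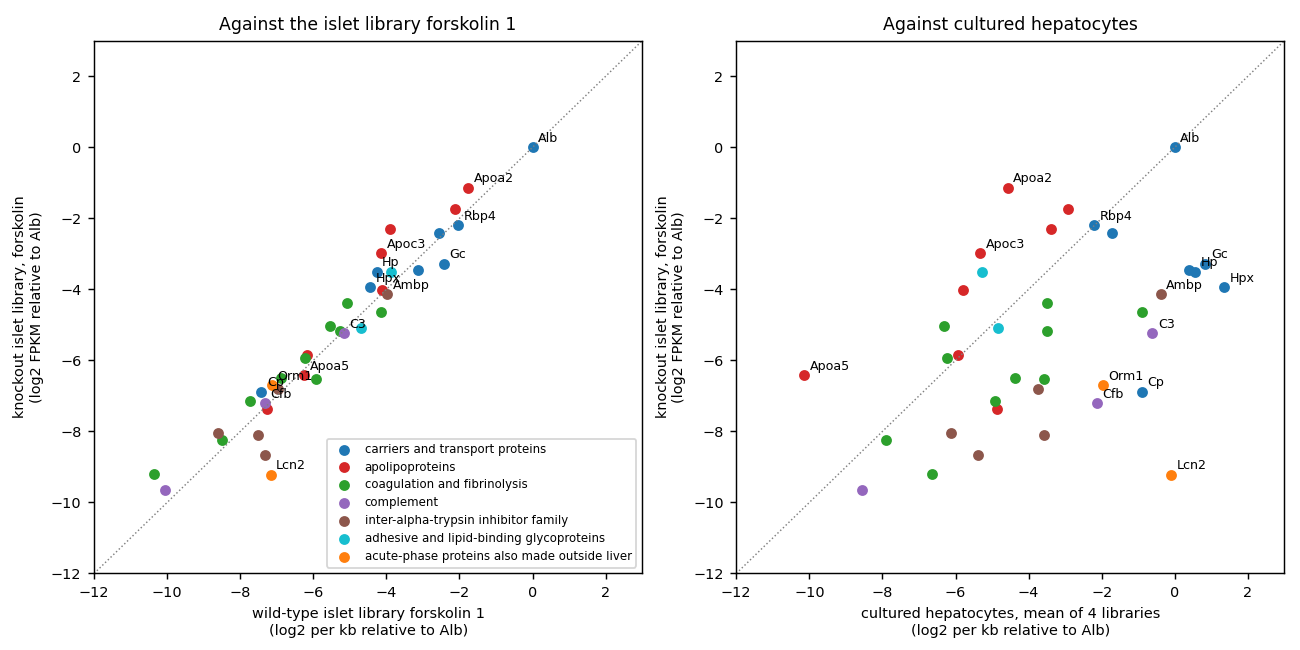
Level relative to Alb (log2 per kb) in the knockout forskolin islet library against the wild-type islet library forskolin 1 and against the mean of the 4 hepatocyte libraries; points are 38 genes coloured by role and the dotted line marks equality. Points follow the line against forskolin 1, while against hepatocytes Lcn2, Cp, Hpx and C3 fall below it and Apoa5, Apoa2 and Apoc3 above it.

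Rat AR42J cells expressed a different subset. Of 36 members in the table, 13, 13, 15 and 12 reached 1 FPKM in GFP control, GFP forskolin, NeuroD1 control and NeuroD1 forskolin (beside 55.9%, 55.8%, 57.1% and 57% of all genes), and 10 were listed at 0 in all 4, Alb among them. Apoc4 was by far the highest at 2023, 1742, 905 and 902 FPKM. Vtn, vitronectin, an adhesive glycoprotein, was at 229, 221, 132 and 135 FPKM. Both were lower in the NeuroD1 libraries, with or without forskolin. Genes of the same cluster, named after their values were seen, followed: Apoe was at 5395, 4677, 2088 and 2269 FPKM, Apoc2 at 76.4, 62.6, 35.8 and 31.9, and Apoc1 at 9.20, 8.14, 3.02 and 0. Apoc2 and Apoc4 lie next to each other, and reads may be hard to assign between them. Sarm1, a neighbour of Vtn named for that reason, was at 40.5, 38.8, 43.6 and 42.2 FPKM and did not share the difference.

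Apoa5 was higher in the NeuroD1 libraries, at 24.9, 17.5, 53.1 and 34.7 FPKM, and lower with forskolin in both kinds of cell. Serpinf2 was at 1.34, 1.41, 6.72 and 4.66 FPKM, and Lcn2 at 7.89, 6.59, 1.83 and 1.64. Serpinf2 was thus highest and Lcn2 lowest in NeuroD1 cells. On the log2(FPKM + 1) scale the 15 members at 1 FPKM or more in at least 1 library were compared. Of these 15, 3 were higher by at least 1 in NeuroD1 control than in GFP control (Serpinf2, Apoc3 and Apoa5, beside 6.69% of 10140 genes). Another 3 were lower (Lcn2, Apoc1 and Apoc4, beside 4.65%). Apoc3 rests on low values, at 0, 0.825, 1.83 and 0 FPKM in the order of libraries above. Forskolin in GFP cells moved 0 of the 15 by 1 or more, beside 1.11% of genes higher and 0.69% lower. Hpx, the clotting factor F10, Ambp and plasminogen (Plg) lay between 18.7 and 50.5 FPKM in all 4 libraries. Each condition had 1 library, so none of these differences has a replicate check.

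INS-1 cells expressed Gc and Ambp at high levels and Fgb at a low one. Gc stood at 11.60, 11.81, 12.02 and 12.15 on the log2 scale (control 1, forskolin 1, control 2, forskolin 2), and Ambp at 9.04, 9.31, 8.55 and 8.76. Fgb stood at 5.08, 5.04, 5.74 and 5.73. Gc and Ambp were slightly higher with forskolin in both pairs, and Fgb differed by replicate only. The authors' deposited table called 0 of 18 members with a fold change, beside 2.7% of 11979 genes higher and 0.902% lower; its log2 fold change was 0.22 for Gc (adjusted p 0.854) and 0.34 for Ambp (adjusted p 0.762). Of the 37 members in that table, 4 had a mean of 1 or more and 19 were listed at 0 throughout.

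In the INS-1 inhibitor experiment JQ1 blocks the acetyl-lysine readers of the BET family and A485 the acetyltransferases CBP and p300, coactivators of CREB. The 2 compounds differ in target, dose and chemistry, so their values are set side by side only, and each had 1 library. Gc was at 565 FPKM in the control, 644 with forskolin, 629 with JQ1 and forskolin and 447 with A485 and forskolin. Ambp was at 241, 326, 244 and 156 FPKM in the same order, and Fgb at 4.10, 3.34, 0.856 and 0.961. All 3 were lower with A485 and forskolin than with forskolin alone, and for Ambp and Fgb the JQ1 library was lower too, while Gc was nearly level. No other member exceeded 1.28 FPKM in any of the 4 libraries, and 17 of 36 were listed at 0 in all.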

How the data were processed

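The hepatocyte, islet and replicated INS-1 tables hold the authors' log2 expression values, obtained with HOMER from reads over RefSeq exons of mm10 or rn6, per the file headers; that they are log2 follows from their range. In the same deposited tables the authors report a log2 fold change with its raw and adjusted p-value. The submitters' processing notes name TopHat2 2.0.9, STAR, HOMER and DESeq2, without saying which aligner served which table. The other 3 deposited tables name no unit and behave as FPKM, since values of weakly expressed genes are multiples of 1 step that scales with transcript length; their ratios were computed here, and replicate numbers are missing from them.

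The 40 genes and all comparison lists were chosen with earlier results of these data known. Forskolin was tested with limma 3.58.1 in R 4.3.3 on the log2 values of 2 against 2 libraries, with a variance trend, a group mean of at least 1 and Benjamini-Hochberg adjustment over all genes; calls were made at adjusted p under 0.05. Replicates may be technical, and the p-values reflect no other spread. The steps were tested on simulated data. FPKM comparisons used log2(FPKM + 1), on which changes of low genes look smaller, and presence at 1 FPKM. Tables were normalised separately, so tests stay within a table. Approximate shares of reads and CPM were obtained by undoing the log2 scale and rescaling each library. Values per library were written out for the 10 highest genes per kb in hepatocytes, the 5 largest increases and decreases in the authors' hepatocyte table, genes past a test, and the 8 largest differences of islet pair 1; all 40 were counted. Levels per kb used the lengths in the tables, and levels relative to Alb left out C9 and Saa3. Promoters came from RefSeq (GRCr8).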

Additional observations from a re-analysis of the deposited data

Results flagged for a closer look

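Of 38 members with an islet mean of at least 1, 4 had opposite forskolin signs in hepatocytes and islets in every replicate pair. This holds with the hepatocyte columns as labelled, and the difference between the tissues was not tested. The share of all genes with such signs was not counted, so the 4 are not read as a trait of the members. With the replicate 2 hepatocyte columns exchanged, 0 of these 4 kept opposite signs in every pair, and 4 others had them (Fga, Fgb, Apoc1 and Apoc4). Apob had a mean difference of −0.0575 in hepatocytes and 1.46 in islets. C3 had −0.0313 in hepatocytes and 1.32 in islets. Itih3 had −0.0134 in hepatocytes and 1.13 in islets. Lcn2 was the reverse, at 0.031 in hepatocytes and −0.10 in islets. All 4 hepatocyte values are small beside the spread between replicate numbers, and the islet values of Apob, C3 and Itih3 come mostly from the library forskolin 1 (pair 1 differences of 2.85, 2.11 and 2.07, pair 2 differences of 0.07, 0.52 and 0.18).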

How the results depend on the processing

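Hepatocyte counts of members called were 0 in every alternative but 1. Apart from the authors' table and the fits with exchanged columns, these alternatives used the columns as labelled. They cannot decide whether forskolin changed a gene, since the target genes went opposite ways in the labelled pairs. With the replicate 2 columns exchanged, 3 genes were called higher, and with the replicate block added 395 were called higher (3.14%) and 227 lower (1.8%), including 1 member, Apoa5 (0.26, 95% interval 0.15 to 0.38, limma adjusted p = 0.000318). The authors' table called 50 and 7. Leaving out 1 library gave 0 to 4 genes higher, 0 lower, and 0 members; the median of the members stayed between 0.01 and 0.04, and Apoa5 between −0.11 and 0.51. Same-numbered libraries deviated together at a correlation of 0.396 in hepatocytes and −0.05 in islets; the labels do not say that numbers mark pairs. With a replicate block, islet calls were 33 members higher, with 667 genes higher (4.88%) and 120 lower, although pair 2 alone had a median of 0.00.

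In islets the authors' table called 1 member, 483 genes higher and 63 lower. Genes called lower numbered 18 with no filter, 56 with a group mean of at least 5, 12 without a variance trend and 52 after quantile normalisation. Leaving out 1 library gave 0 to 37 members higher and 0 lower, 114 to 1879 genes higher, 7 to 961 lower, and a member median from −0.11 to 2.23. Over these, differences ran from −0.48 to 3.60 for Ahsg, −0.31 to 3.66 for Alb, −0.30 to 3.74 for Apoa1, −0.45 to 3.37 for Apoa2, −0.11 to 3.03 for Apob, −0.47 to 3.36 for Apoa4, −0.15 to 3.08 for Fga, −0.29 to 3.04 for Apoh and 0.14 to 2.11 for Itih3; the lowest values were without forskolin 1. The fit gives a group left with 1 library the spread of the other group.

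At 2 FPKM, 15 members were present in the wild-type control of the knockout table. A pseudocount of 0.1 moved its 4 medians to 2.56 (controls, knockout over wild type), 4.48 (forskolin), 1.98 (knockout forskolin over control) and 0.13 (wild type). Without the 3 acute-phase proteins the profile correlations of hepatocytes were 0.567 with forskolin 1 and 0.521 with knockout forskolin, and 0.970 between those 2 libraries. The knockout forskolin library, at 0.61 M reads, limits low members most: 1 read per kb is worth 1.64 FPKM there.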
